A study of Mus musculus with 6 samples.

Results

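The genes described here encode the proteins of the cytosolic ribosome. They were chosen by name, as every gene of the count tables whose symbol begins with Rpl or Rps and a number, the P stalk genes Rplp0, Rplp1 and Rplp2, and Rpsa, without the pseudogenes named -ps and without the Rps6k kinases. This gave 88 of 34745 genes: 31 genes of the small subunit, 43 of the large subunit, 3 of the P stalk, 10 paralogs or retrocopies, and Rps19bp1, which carries the name but is not a ribosomal protein. Fau, which encodes another core protein, falls outside the name rule.

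RNA-seq counts came from IngWAT, the inguinal depot of subcutaneous white fat, of 3 SAKI and 3 WT mice. The SAKI genotype combines an LSL-Slc35d3 transgene, silent until Cre removes a stop sequence, with Cre driven by the adiponectin promoter, which is active in adipocytes, and the WT controls lack Cre. All were male, were fed a normal chow diet (10 kcal% fat) for 10 weeks from 6 weeks to 16 weeks of age, and are labelled as perfused with PBS. The labels call the mice separate samples of a group and give no litter, batch or sequencing date.

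A ribosome holds a single copy of nearly every ribosomal protein, with the acidic P proteins of the stalk as the exception, and cells balance the supply of the subunits largely by translational control and by degrading unassembled protein. Most ribosomal protein mRNAs begin with a 5′ terminal oligopyrimidine (TOP) tract, a C followed by pyrimidines, through which mTORC1 and the RNA-binding protein LARP1 control their translation. The mouse genome also holds many processed copies of these short, abundant mRNAs, and reads from a copy and from its parent can be identical.

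The reference sequences of the members were searched for both properties. Of the 67 members with a RefSeq promoter window (GRCm38.p6), 14 (20.9%) had a C at an annotated start followed by 4 or more pyrimidines, against 813 of all 27025 genes in that table (3.01%). At these annotated starts, most members thus had no tract of this form. The first 25 bases of 6 members described further on are shown with the tract in capitals. They show that Rps27 and its retrocopy Rps27rt differ in the length of the annotated tract but share the bases that follow.
Rps6 (chr4:86857343-86857367, minus strand): CTCTTTTTCgtgacgcctcccaggc
Rpl38 (chr11:114668580-114668604, plus strand): CTTTCCCCgttctcttcggttctca
Rpl35a (chr16:33056482-33056506, plus strand): CTCTTTCCgccatcttggcgcctgt
Rplp2 (chr7:141447651-141447675, plus strand): CTTTCgccgccggacgccgccgagg
Rps27 (chr3:90213624-90213648, minus strand): CCTTTCCggcggtgacgacctccct
Rps27rt (chr9:114982715-114982739, minus strand): CTTTCCggcggtgacgacctcccta

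The copies were closer still in their coding sequence. In GENCODE M21 (GRCm38), all 252 coding bases of Rps27 were found unchanged in Rps27rt, and all 891 coding bases of Rpl5 in the processed pseudogene Gm15500. Rpl9 and Rpl9-ps6 differed at 1 of 576 coding bases, and Rpl23a and Rpl23a-ps3 at 1 of 468. The 75 bases around each mismatch are shown because a coding read can tell parent from copy only where it covers that base. The capital marks the base that differs.
Rpl9 (chromosome 5), coding bases 229 to 303: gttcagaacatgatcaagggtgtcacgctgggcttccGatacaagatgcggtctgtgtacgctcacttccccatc
Rpl9-ps6 (chromosome 19): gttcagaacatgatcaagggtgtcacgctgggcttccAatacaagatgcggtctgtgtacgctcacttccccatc
Rpl23a (chromosome 11), coding bases 79 to 153: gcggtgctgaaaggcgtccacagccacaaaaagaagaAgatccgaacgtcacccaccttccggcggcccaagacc
Rpl23a-ps3 (chromosome 14): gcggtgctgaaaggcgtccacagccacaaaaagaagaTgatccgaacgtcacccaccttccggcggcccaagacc

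Library totals ranged from 15354161 to 18787036 counts. Slc35d3, the knocked-in gene, was at 745, 793 and 770 CPM (counts scaled to library size with TMM factors) in SAKI 1, 2 and 3, against 73.3, 82.1 and 74.4 CPM in WT 1, 2 and 3, so that each library matched its label. The WT libraries were not alike. In WT 2 mitochondrially encoded genes took 13.8% of the counts, as in SAKI mice (13.1% to 15.9%), but they took 7.31% in WT 1 and 8.78% in WT 3. Summed macrophage markers lay between 2630 and 3140 CPM in the SAKI libraries and at 2490 CPM in WT 2, against 1390 CPM in WT 1 and 1130 CPM in WT 3, with 10 of 10 above 0 on the log2 scale. Those of fibroblasts and progenitors (8 of 10 above 0) lay between 9000 and 10200 CPM in the SAKI libraries and at 9930 CPM in WT 2, against 4530 CPM in WT 1 and 3300 CPM in WT 3. T and NK cell markers (10 of 10 above 0) summed to between 521 and 604 CPM in SAKI libraries, all above the WT libraries (between 266 and 422 CPM). B cell markers had 10 of 10 above 0 (median 0.19, but -0.01 without WT 2). Their sums overlapped, at 1200, 1440 and 1400 CPM in SAKI 1, 2 and 3 and 1440, 883 and 1330 CPM in WT 1, 2 and 3. All 12 markers of mature adipocytes were detected and all 12 were below 0 (median -0.36), although their sums overlapped, and 0 passed with edgeR. For 5 of them the groups did not overlap, where 12.4% of all genes tested were lower without overlap. Immediate early genes, a rapid transcriptional response to stimuli, had 13 of 14 below 0 (median -0.70), also with 0 passing. The part of these markers in the values of the ribosomal protein genes was not tested. Of 8 epithelial markers, Krt5, Krt14, Krt8, Krt18, Csn2 and Lalba averaged under 1 CPM. The others were detected at low levels, Cdh1 at 1.91 to 3.14 CPM and Epcam at 0.195 (WT 2) to 4.39 CPM (WT 3). In bulk tissue, fewer cells of a type and less RNA per cell cannot be told apart.

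The members took 1.17%, 1.21% and 1.34% of all counts in SAKI 1, 2 and 3 (1.24% ± 0.0916, SD, n = 3), against 1.23%, 1.08% and 1.08% in WT 1, 2 and 3 (1.13% ± 0.0896, SD, n = 3). The difference of 0.11 percentage points was close to the spread within a group, and WT 1 lay inside the SAKI range. Counting error alone gave 95% Wilson intervals no wider than 0.011 points, which do not cover differences between mice. As a share of summed FPKM (counts divided by gene model length and library size) the members were at 2.27% ± 0.235 in SAKI mice and 2.35% ± 0.384 in WT mice (SD, n = 3 each). The order of the groups therefore depended on the unit. With mitochondrially encoded genes left out of the total, the member share of counts was 1.45% ± 0.0834 in SAKI mice and 1.26% ± 0.0746 in WT mice (SD, n = 3 each), and the groups did not overlap. The part of the mitochondrial counts in these shares was not tested.

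Although they encode parts of 1 particle, the members were counted at very different levels, and the FPKM values carry differences in gene model length that are given further on. Among the 5 highest by mean FPKM were Rplp1, a P stalk gene, the retrocopy Rps27rt, and the large subunit genes Rpl8 and Rpl4. Rplp1 was at 573, 577 and 728 FPKM in SAKI 1, 2 and 3 and at 781, 561 and 699 FPKM in WT 1, 2 and 3. Rps27rt was at 713 ± 30.6 FPKM in SAKI mice and 539 ± 34.7 FPKM in WT mice (SD, n = 3 each). Rpl8 (578 ± 54.4 against 551 ± 65.3 FPKM) and Rpl4 (524 ± 31.5 against 476 ± 45.1 FPKM, SAKI against WT mice, SD, n = 3 each) were also among them. In SAKI mice Rps27rt, at 684 to 745 FPKM, lay above Rpl8 (533 to 639) and Rpl4 (489 to 552) without overlap. In WT mice the values of Rps27rt, Rpl8 and Rpl4 overlapped.

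The 5 lowest were Rpl10l, Rpl9, Rps13, Rps27 and Rpl39l. Rpl10l, an intronless paralog used in male germ cells, had 0 counts in every library, which allows a level of up to 0.16 to 0.195 CPM at these depths (3 counts per library). Rpl39l, another germ cell paralog, was at 1.07 ± 0.384 FPKM in SAKI mice and 1.04 ± 0.129 FPKM in WT mice (SD, n = 3 each). Rpl9, Rps13 and Rps27, by contrast, are core proteins of every ribosome. Rpl9 was at 0.261 ± 0.0318 FPKM in SAKI mice and 0.503 ± 0.0701 FPKM in WT mice, and Rps13 at 0.601 ± 0.0369 and 0.623 ± 0.153 FPKM (SD, n = 3 each). Rps27 was at 0.601 ± 0.0658 FPKM in SAKI mice and 0.824 ± 0.131 FPKM in WT mice (SD, n = 3 each), while Rps27rt, which has the same coding bases, was among the highest.

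Part of the FPKM range came from the gene lengths. The length implied by count and FPKM was 3.39 times the mature mRNA in the median core member, and 16.1 times for Rpl9 (its mature mRNA has 680 bases). Divided by the length of 1 mature mRNA instead, a scale chosen after the values were seen, the 77 core members still ran from 1.78 CPM per kilobase for Rps23 to 787 CPM per kilobase for Rps15, a 442-fold range with a median of 115. In all, 12 core members, Rps23 among them, were under 10% of that median. Rps6, whose protein is the classical substrate of S6 kinase, was at 5.98 CPM per kilobase.

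For several low members a near-identical copy held far more counts than the gene itself. Rps27 (chr3:90212522-90213651, minus strand) had 25, 30 and 31 counts in SAKI 1, 2 and 3 and 33, 35 and 45 counts in WT 1, 2 and 3. Rps27rt (chr9:114982371-114982740, minus strand), which shares 98.5% of the 75-base windows of the Rps27 mRNA, had 3942, 4046 and 5177 counts in SAKI mice and 3327, 3054 and 3060 in WT mice. Rps27 itself held 0.873% of the counts of the pair. Rpl9 (chr5:65388364-65391444, minus strand) had 42, 40 and 61 counts in SAKI mice and 98, 76 and 86 in WT mice, against 2189, 2064 and 2951 counts in SAKI mice and 2919, 1969 and 2753 in WT mice for Rpl9-ps6. For Rpl23a the counts were 19, 21 and 36 in SAKI mice and 32, 28 and 34 in WT mice, 1.01% of the counts of the pair with Rpl23a-ps3. Rpl5, which with Rpl11 and 5S rRNA forms the particle that binds Mdm2 when ribosome assembly fails, held 6.66% of its pair with Gm15500. Rpl11 held 5.09% of its pair with Gm10036, and Rpl12, part of the stalk base, 4.84% with Gm10275.

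**Figure D1:**
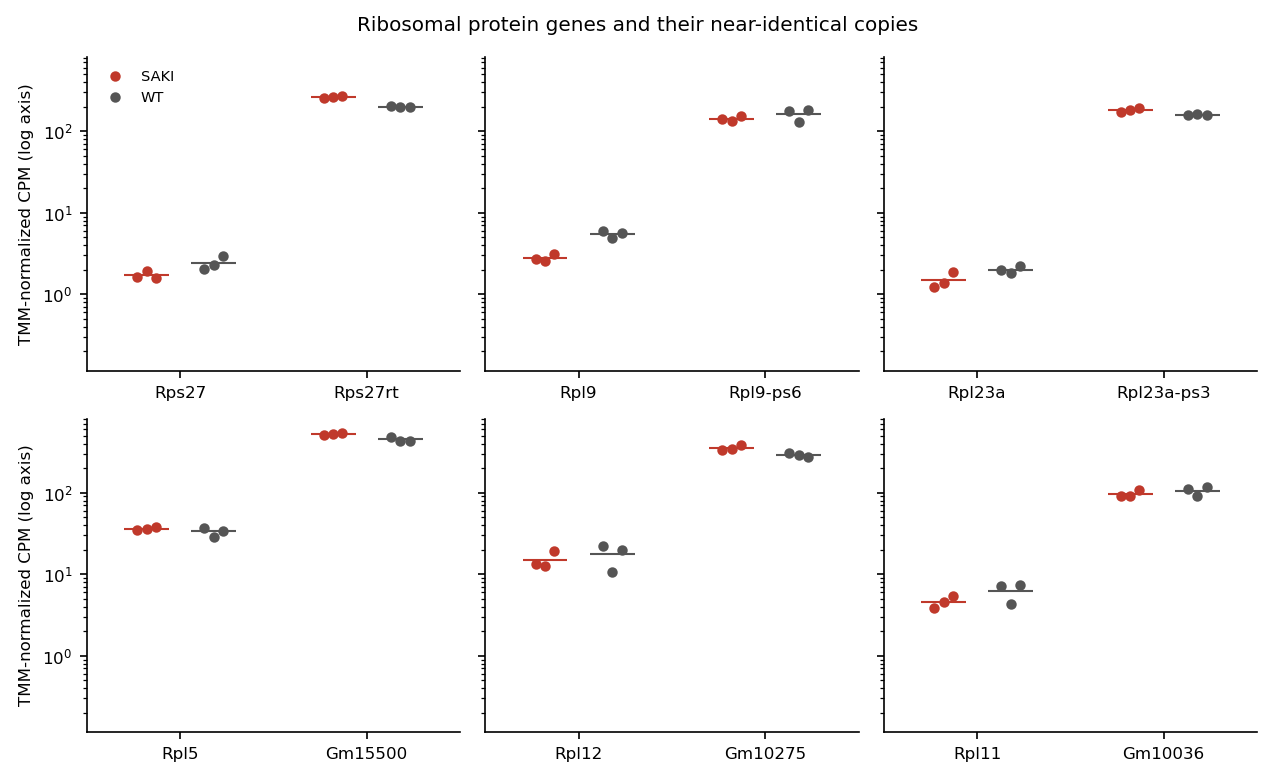
TMM-normalized CPM (log axis) of 6 ribosomal protein genes and of a near-identical copy of each, with 1 point per mouse (SAKI red, WT grey) and a line at the group mean. In each panel the copy lies far above the gene with the name of the protein, as for Rps27rt, which had 257, 262 and 268 CPM in SAKI mice while Rps27 had 1.63, 1.94 and 1.60 CPM in the same mice.

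Over all members the median share of 75-base mRNA windows found in no other annotated gene was 49.7%, and 45 of 88 members were below 50%. The windows were shared with 731 other genes, of which 75 are listed in the count tables and 656 are not. The sources used here do not say how reads that match several places were counted, and a member's count is uncertain where its unique share is low. With 33 copies that share at least 25% of a member's windows summed into 27 members, an alternative chosen after the values were seen, the level of Rps27 went to 677 CPM per kilobase, that of Rpl23a to 307, of Rpl9 to 231 and of Rpl11 to 129. Rps6, Rpl28, Rps13, Rps29, Rpl17, Rpl37a and Rpl36 had no such copy in the tables and stayed between 2.61 and 9.55 CPM per kilobase, and Rps23 went to 2.51. The core median went to 192 CPM per kilobase, and 12 core members were still under 10% of it, in a 313-fold range. Summing the copies turned the sign of the log2 ratio for 4 members, and 0 of them passed with edgeR either way. These were Rps27 (-0.48 alone, 0.38 summed), Rpl12 (-0.22 alone, 0.28 summed), Rpl23a (-0.42 alone, 0.17 summed) and Rpl27 (-0.45 alone, 0.06 summed).

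The comparison of SAKI with WT mice asks whether the genes of the ribosome differed in fat that expresses the transgene. No member passed the test. Of the 87 members with enough counts, 0 were higher and 0 lower at an adjusted p under 0.05 from edgeR's quasi-likelihood test, where 0.0195% of all 15400 genes tested were higher and 0.013% lower (0.0325% in either direction, 5 genes). At an unadjusted p under 0.05, 13 members were on the higher side and 6 on the lower side (background 8.36% and 9.99% of all genes, or 14.9% and 6.9% of the members). DESeq2 called 2 members higher, Rps24 and Rps27rt, and 1 lower, Rpl9, where it called 2.01% of all genes higher and 2.71% lower. The log2 ratio was above 0 for 40 members and below 0 for 47 (46% above, against 49.6% of all genes, and 54% below, against 50.4%), with a median of -0.04. The groups did not overlap for 19 members higher in SAKI mice and 4 lower, against 13% and 12.4% of all genes.

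Rps24, a small subunit protein mutated in some human Diamond-Blackfan anaemia, had the largest log2 ratio above 0. Its levels were 400, 411 and 405 CPM in SAKI 1, 2 and 3, against 246, 333 and 222 CPM in WT 1, 2 and 3. The SAKI mice were tightly grouped, and WT 2 lay between them and the other WT mice. The log2 ratio of SAKI to WT, given as such from here on with its standard error (SE), was 0.60 (SE 0.17, edgeR adjusted p = 0.182), and 0.80 (SE 0.10, edgeR adjusted p = 0.00741) without WT 2.

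The retrocopy Rps27rt had the smallest p on the higher side. It was at 257, 262 and 268 CPM in SAKI mice, against 204, 198 and 200 CPM in WT mice, and here WT 2 sat with the other WT mice. The log2 ratio of 0.38 (SE 0.09, edgeR adjusted p = 0.17) stayed at 0.38 without WT 2 (edgeR adjusted p = 0.0361). It was also 0.38 with Rps27 and Rps27rt summed, but Rps27, with 0.873% of the counts of the pair, could hardly move it. Rps27 taken alone was at 1.63, 1.94 and 1.60 CPM in SAKI mice and 2.02, 2.27 and 2.95 CPM in WT mice, a log2 ratio of -0.48 (edgeR adjusted p = 0.369) from under 50 counts a library. The direction reported for this protein thus depends on which of the loci is read.

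Among the other members of smallest p above 0, Rpl30, Rpl35a and Rpl21 are large subunit genes and Rps26 lies at the mRNA exit of the small subunit. Rpl35a was at 31.3, 35.1 and 36.3 CPM in SAKI mice and 21.2, 28.7 and 23.4 CPM in WT mice (log2 ratio 0.49, SE 0.14, edgeR adjusted p = 0.192). Rpl21 was at 128, 128 and 130 CPM in SAKI mice and 94.7, 117 and 87.7 CPM in WT mice (log2 ratio 0.37, edgeR adjusted p = 0.224). In both, all SAKI mice lay above all WT mice and WT 2 was the WT mouse nearest to them. For Rpl30 the log2 ratio was 0.36 and for Rps26 it was 0.35 (edgeR adjusted p = 0.192 and 0.21), again with no overlap of the groups. Rps26 has a copy, Rps26-ps1, at 99.5, 101 and 101 CPM in SAKI mice and 61.3, 91.4 and 56.1 CPM in WT mice, and their sum had a log2 ratio of 0.42.

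**Figure D2:**
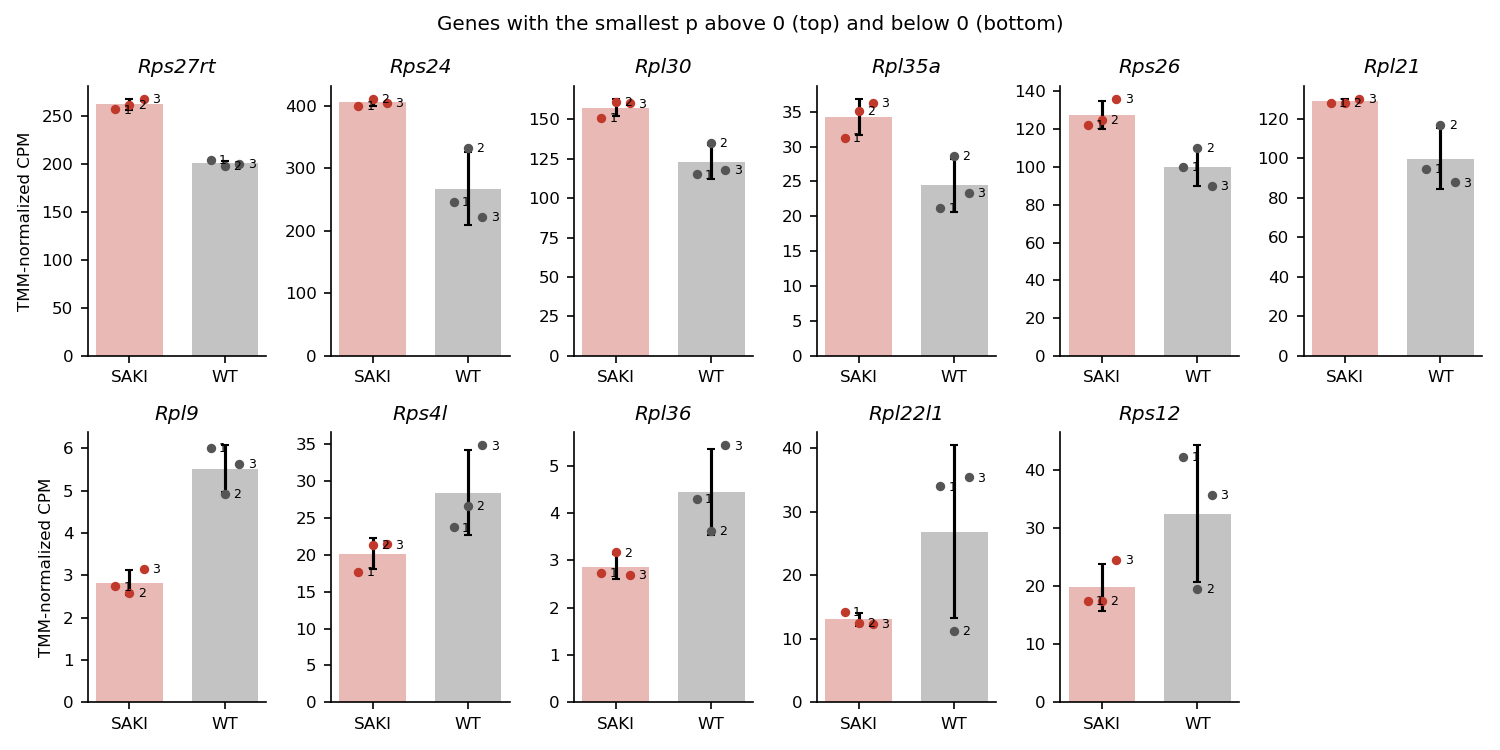
TMM-normalized CPM of the 6 members of smallest p above 0 (top row) and of 5 of those below 0 (bottom row) in IngWAT, with bars at the group mean, error bars of 1 SD and 1 numbered point per mouse (SAKI red, on the left, WT grey). Rps27rt and Rpl9 separate the groups with all 3 WT mice on the same side, whereas in Rpl22l1 and Rps12 WT 2 lies with the SAKI mice.

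On the lower side Rpl9 had the smallest p of all members. Its levels were 2.74, 2.59 and 3.15 CPM in SAKI mice and 6.01, 4.93 and 5.63 CPM in WT mice, a log2 ratio of -0.96 (SE 0.21, edgeR adjusted p = 0.157). Every SAKI mouse was below every WT mouse. With Rpl9-ps6, which held nearly all counts of the pair, summed in, the log2 ratio was -0.20 (edgeR adjusted p = 0.503). The value for Rpl9 therefore rests on the few reads assigned to its own locus.

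For Rps12, a small subunit gene (17.4, 17.5 and 24.5 CPM in SAKI mice, 42.3, 19.5 and 35.7 CPM in WT mice) the log2 ratio was -0.80 summed with its copy Rps12-ps3 and -0.71 alone (edgeR adjusted p = 0.248 and 0.267). WT 2 was at the level of SAKI mice and the other WT mice were well above. Rpl36, at 2.74, 3.17 and 2.69 CPM in SAKI mice and 4.30, 3.63 and 5.43 CPM in WT mice, had a log2 ratio of -0.64 without overlap (edgeR adjusted p = 0.243). It rested on few reads, with 42, 49 and 52 counts in SAKI mice and 70, 56 and 83 in WT mice.

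The calls for these genes turned on WT 2. Without that library, 11 members were higher and 19 lower at an adjusted p under 0.05 from edgeR, where 7.41% of all genes were higher and 9.14% lower, so that 34.5% of the members passed against 16.6% of 15693 genes. All 30 had the same sign with all 6 libraries, but the fits share every library except WT 2, so this agreement adds no support. For 18 of the 19 lower members the groups overlapped when WT 2 was kept, while 9 of the 11 higher members separated the groups even with it. The matching shares over all genes called without WT 2 were not tabulated, so these overlaps cannot be read as particular to the members. Lower among the 30 members called were Rps18, Rps27a, Rps28, Rpl14, Rps20, Rps16, Rps19 and Rpl34, and higher were Rps15, Rpl41, Rpl38 and Rpsa. For Rps18 the log2 ratio was -0.91 without WT 2, -0.60 over all 6 libraries, and -0.25 over all 6 libraries with its copies summed. Leaving out any other library called 0 members with edgeR. The mitochondrial share and the summed macrophage and fibroblast markers given above divided WT 2 from WT 1 and WT 3 in the same way, and their part in these values was not tested.

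**Figure D3:**
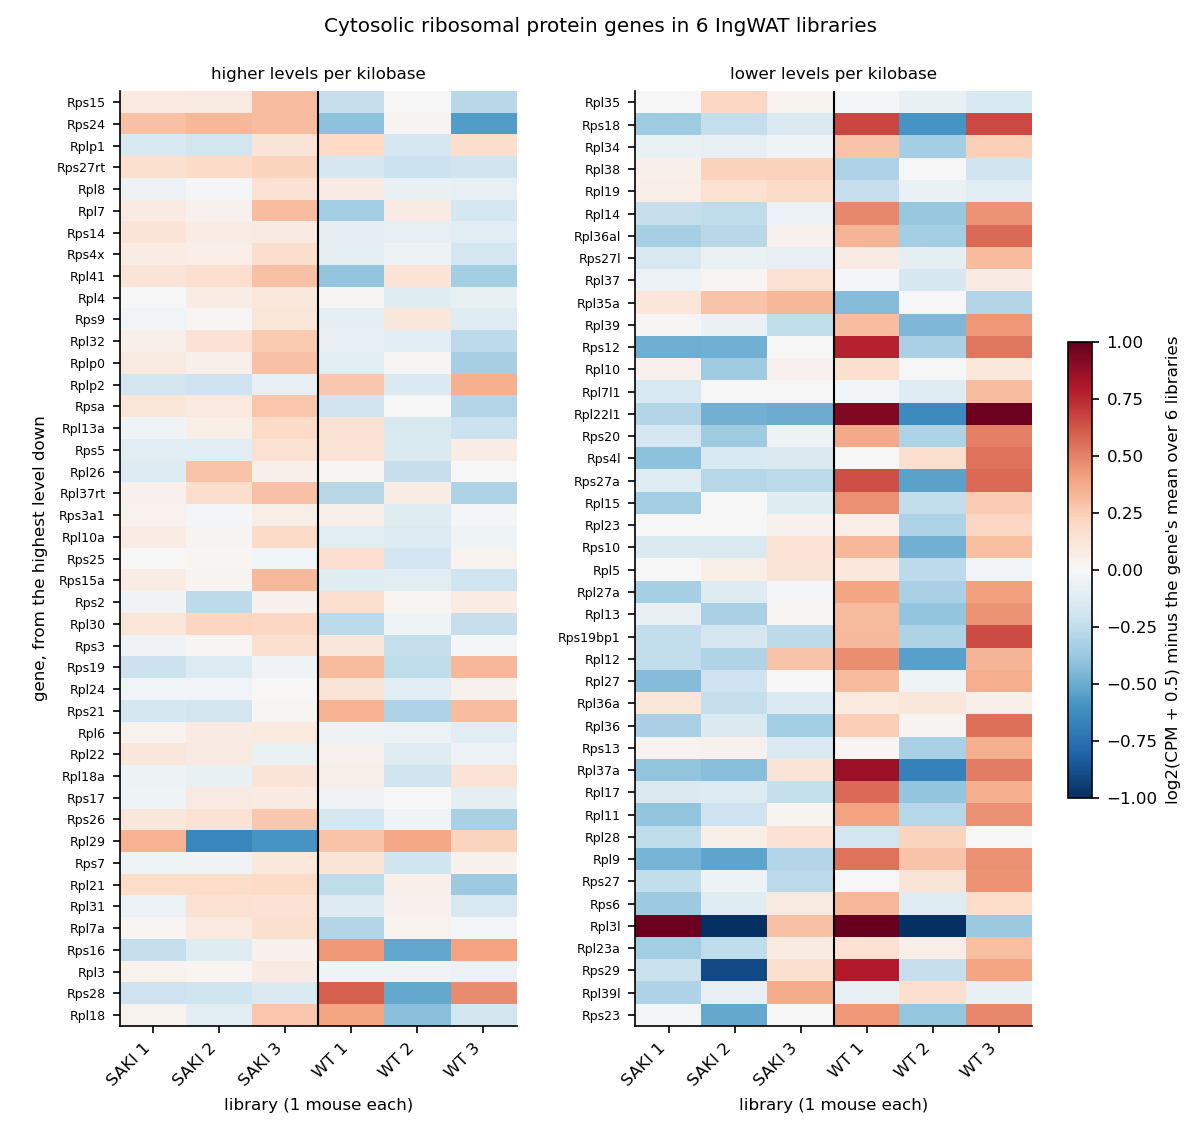
Level of each of 85 members in the 6 libraries, as log2(CPM + 0.5) minus the gene's mean over the libraries (red above, blue below, colour scale ending at 1 on either side), with members ordered from the highest to the lowest level per kilobase. In WT 1 and WT 3 members such as Rps18, Rps12 and Rpl22l1 are red and members such as Rps24, Rps15 and Rpl41 are blue. WT 2 is near the SAKI columns for Rps18, Rps12, Rpl22l1 and Rpl41. It lies between the groups for Rps24 and Rps15, and with the other WT mice for Rps27rt and Rpl9. For 19 members higher in SAKI mice and 4 lower, all WT mice, WT 2 included, lay apart from all SAKI mice (13% and 12.4% of all genes).

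The direction of a member followed its level. Ranked by CPM per kilobase of mature mRNA, the 29 lowest members (1.78 to 43.3) had a median log2 ratio of -0.42, with 26 below 0 and 3 above. The 29 in the middle (46.2 to 193) were balanced, with 14 below and 15 above and a median of 0.01. Of the 29 highest (197 to 787) 22 were above 0 and 7 below, with a median of 0.19. Across the 87 genes, which are not independent replicates, Spearman's rho between log2 ratio and level per kilobase was 0.66. With mean CPM in place of that level rho was 0.64, whereas over all 15400 genes log2 ratio and mean CPM had a rho of -0.19. With copies summed into their parents, rho with level per kilobase was 0.65. The log2 ratio had a rho of 0.10 with the unique share of the mRNA, 0.02 with its length and -0.02 with the ratio of gene model to mature length.

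**Figure D4:**
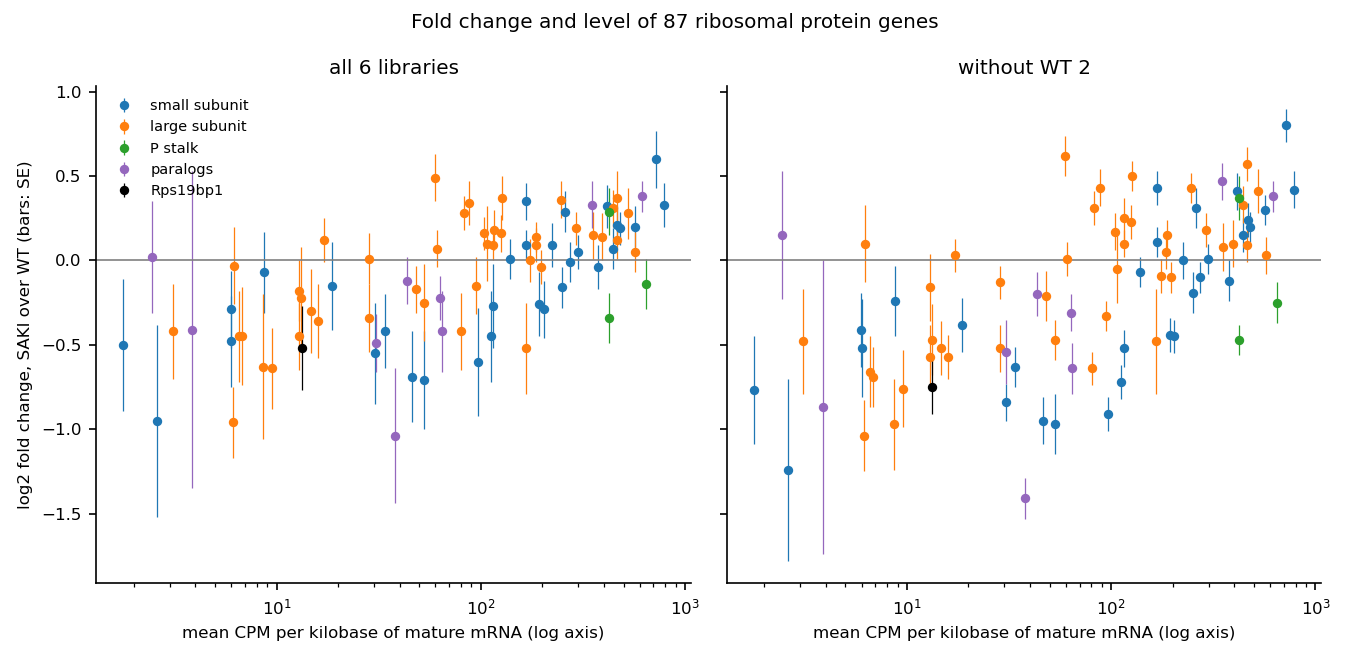
Log2 ratio (SAKI over WT, bars of 1 standard error, from edgeR) of 87 members against mean CPM per kilobase of mature mRNA (log axis), coloured by group, with all 6 libraries on the left and without WT 2 on the right. In the left panel the medians of the 29 lowest, 29 middle and 29 highest members by level are -0.42, 0.01 and 0.19, and in the right panel -0.54, -0.07 and 0.18.

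The same contrast could be read in each library. The median log2(CPM + 0.5) of the 29 highest members exceeded that of the 29 lowest by 5.31, 5.63 and 5.66 in SAKI 1, 2 and 3, against 4.77, 5.30 and 5.06 in WT 1, 2 and 3. In this difference WT 2 was thus nearest to SAKI 1, and WT 1 was the lowest. Mean differences were 5.53 ± 0.19 in SAKI mice and 5.04 ± 0.27 in WT mice (SD, n = 3 each). For the 29 lowest members alone, the median in WT 2 (2.78) lay within the SAKI range (2.52 to 2.86), below WT 1 (3.36) and WT 3 (2.99). For the 29 highest, WT 2 (8.07) lay with WT 1 (8.13) and WT 3 (8.05), below the SAKI libraries (8.15 to 8.25). These medians come from the same libraries as the log2 ratios.

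By role, the 31 small subunit genes had 13 log2 ratios above 0 and 18 below (median -0.07), and the 43 large subunit genes had 23 above and 20 below (median 0.05). The P stalk genes, whose products recruit elongation factors, lay on both sides of 0. Rplp0 was at 605, 590 and 698 CPM in SAKI mice and 528, 574 and 451 CPM in WT mice (log2 ratio 0.29, edgeR adjusted p = 0.32), so that all SAKI mice lay above. Rplp2 was at 154, 152 and 165 CPM in SAKI mice and 211, 158 and 224 CPM in WT mice (log2 ratio -0.34, edgeR adjusted p = 0.283). Rplp1 stood at -0.14 with overlapping groups.

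Members with roles known beyond the ribosome also lay on both sides of 0. Rpsa, known as a laminin receptor as well as a small subunit protein, was at 712, 700 and 792 CPM in SAKI mice and 572, 655 and 534 CPM in WT mice (log2 ratio 0.32, edgeR adjusted p = 0.259). Rpl38, needed in the mouse for translation of Hox mRNAs, had a log2 ratio of 0.34 (edgeR adjusted p = 0.235), with every SAKI mouse above every WT mouse. Rps27a, which is made as a fusion with ubiquitin, was at 16.9, 15.1 and 15.2 CPM in SAKI mice and 29.1, 12.6 and 27.6 CPM in WT mice (log2 ratio -0.55, edgeR adjusted p = 0.363). In Rps27a, WT 2 was the lowest of all 6 libraries. Rps19, the gene most often mutated in human Diamond-Blackfan anaemia, stood at -0.29, Rps6 at -0.29, Rpl10, which joins the large subunit late, at -0.17, and Rpl11 at -0.45 (-0.15 with its copies summed). Rpl5 stood at 0.12 (0.23 with its copies summed), Rpl13a, which in human cells can leave the ribosome to silence mRNAs, at 0.14, and Rpl22 at 0.09 (edgeR adjusted p between 0.405 and 0.659 for these 7 genes).

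The paralogs were read beside their parents, and the differences between them were not tested. Rpl22l1, the paralog of Rpl22, was at 14.3, 12.5 and 12.4 CPM in SAKI mice and 34.0, 11.2 and 35.4 CPM in WT mice, and WT 2 was the lowest of all 6. Its log2 ratio was -1.04 (SE 0.40, edgeR adjusted p = 0.248) and -1.41 without WT 2 (edgeR adjusted p = 0.00276), while Rpl22 itself was at 94.8, 93.3 and 84.0 CPM in SAKI mice and 90.7, 80.7 and 84.3 CPM in WT mice. Rps4l, a paralog of Rps4x, was at 17.7, 21.3 and 21.4 CPM in SAKI mice and 23.7, 26.6 and 34.8 CPM in WT mice without overlap (log2 ratio -0.49, edgeR adjusted p = 0.226), while Rps4x stood at 0.21. Rpl37rt, a transcribed copy of Rpl37, stood at 0.33, Rpl36al at -0.42, Rps27l, which p53 induces, at -0.22, Rpl7l1 at -0.12 and Rpl39l at 0.02. Rps19bp1, whose product binds Rps19 and activates the deacetylase Sirt1, was at 9, 9.51 and 8.89 CPM in SAKI mice and 13.6, 8.56 and 17.2 CPM in WT mice (log2 ratio -0.52, edgeR adjusted p = 0.32).

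Rpl3l replaces Rpl3 in striated muscle. Its levels were 7.95, 0.97 and 4.76 CPM in SAKI 1, 2 and 3, against 13.9, 1.49 and 2.82 CPM in WT 1, 2 and 3, and the log2 ratio was -0.41 with an SE of 0.94 (edgeR adjusted p = 0.833). The summed skeletal muscle markers followed the same order of mice, at 3510, 482 and 2180 CPM in SAKI mice and 7340, 636 and 1050 CPM in WT mice. The spread between mice of a group was larger than the difference between the groups.

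In Rpl29, a large subunit gene picked after its values were seen, 1 SAKI mouse stood apart. It was at 118 CPM in SAKI 1 but 58.6 and 61.1 CPM in SAKI 2 and 3, and at 113, 121 and 108 CPM in WT mice (log2 ratio -0.52, edgeR adjusted p = 0.342).

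Scaling each library to its summed member counts asks which members departed from that sum, in which the most abundant members weigh most. Again 0 passed with edgeR. The 3 of smallest p above 0 were Rps24 (log2 ratio 0.49), Rps27rt (0.27) and Rpl35a (0.37), and among the 3 below were Rpl9 (-1.08) and Rps4l (-0.61), with edgeR adjusted p between 0.132 and 0.231. These genes are described above, and on this scale the median of all members was -0.15.

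Other genes of protein synthesis were set beside the members. Of 27 genes of translation with TOP mRNAs, 15 lay above 0 and 12 below, with a median of 0.08, against -0.00 for all genes tested. Tpt1, a TOP mRNA of a growth-related protein, was at 81.6, 87 and 90.6 CPM in SAKI mice and 127, 92.3 and 128 CPM in WT mice, with WT 2 nearest to the SAKI mice. Eif4a2, an RNA helicase of initiation that is in this list and among the initiation factors, was at 487, 496 and 456 CPM in SAKI mice and 320, 331 and 315 CPM in WT mice without overlap (log2 ratio 0.57, edgeR adjusted p = 0.148). Eif4h, which encodes a cofactor of that helicase family, lay on the other side of 0, at 148, 145 and 149 CPM in SAKI mice and 276, 251 and 315 CPM in WT mice (log2 ratio -0.93, edgeR adjusted p = 0.111).

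Ribosome biogenesis genes, which make and process rRNA and assemble the subunits, lay mostly below 0. Of 61 tested, 55 were below and 6 above, with a median of -0.27, and 0 passed with edgeR (the unadjusted p was under 0.05 for 8 below 0 and 1 above, where 9.99% and 8.36% of all genes had it). Rrp12, an export factor of both subunits, was at 14.7, 16.0 and 16.0 CPM in SAKI mice and 37.5, 15.9 and 38.0 CPM in WT mice, with WT 2 among the SAKI mice. Without WT 2, 22 of the 61 were lower and 0 higher at an adjusted p under 0.05 from edgeR, where 9.14% of all genes were lower and 7.41% higher. Mitochondrial ribosomal protein genes, which serve the other ribosome of the cell, had 64 of 77 below 0 and a median of -0.16, and Mrps6 was at 28.3, 30.7 and 30.4 CPM in SAKI mice and 50.4, 37.2 and 59.6 CPM in WT mice (log2 ratio -0.72, edgeR adjusted p = 0.17). Initiation factors had 28 of 38 below 0 (median -0.19), elongation and release factors 7 of 11 (median -0.19) and genes of mTORC1 and TOP mRNA control 10 of 19 (median -0.06). In that last group Rheb, the GTPase that activates mTORC1, was at 61.9, 60.4 and 58.3 CPM in SAKI mice and 96.2, 64.6 and 116 CPM in WT mice (log2 ratio -0.61, edgeR adjusted p = 0.211).

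**Figure D5:**
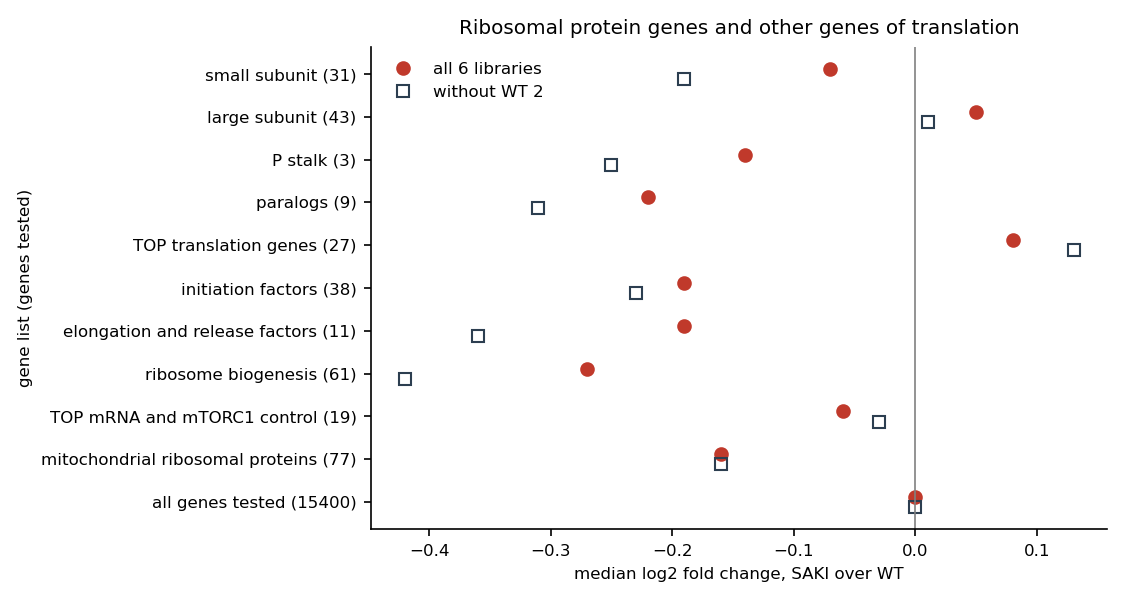
Median log2 ratio (SAKI over WT) of the groups of ribosomal protein genes, of other lists of protein synthesis and of all genes tested, with the number of genes tested in brackets, for all 6 libraries (filled circles) and without WT 2 (open squares). The small and large subunit medians are -0.07 and 0.05 with all libraries, and ribosome biogenesis is at -0.27 with all libraries and -0.42 without WT 2.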

How the data were processed

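The members, gene lists and tests were chosen with earlier results of these data known. The authors deposited raw counts per gene for each library and, made from them, a table of FPKM. Tools listed in the submitters' processing notes, with no role stated, are StringTie 1.3.0, HISAT2 2.0.4 and Bowtie2 2.2.6, and the build is GRCm38. The sources used here do not give the counting tool, the strand setting or the treatment of reads with several matches, so overlapping and antisense genes cannot be told apart. RNA was poly(A)-selected.

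The main test was the quasi-likelihood test of edgeR 4.0.16 (R 4.3.3) on the deposited counts of all genes, with genotype alone, TMM scaling, filterByExpr (minimum count 10, minimum total 15) and Benjamini-Hochberg adjustment over all genes tested. Alternatives were DESeq2 1.42.0, limma 3.58.1 (voom, or log2(FPKM + 1) and log2(FPKM + 0.1) where FPKM reached 1 in 3 libraries), other scalings and filters, the replicate number as a block, each library left out and, chosen after seeing the data, copies summed into their parents. The p-values measure the spread between the samples the labels name. Levels are TMM CPM. Copies were found by looking up each 75-base window of 1 mature mRNA per member in all other GENCODE M21 transcripts. The fit was tested on simulated counts with 200 changed genes. There edgeR missed most of the smaller changes, so a member that did not pass may still differ.

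Members named are the 6 of smallest p on each side of 0, the 5 highest and 5 lowest by FPKM, the P stalk genes, paralogs and Rps19bp1, 10 members with known roles, and the 3 that departed most in each direction from the summed members, besides those called without WT 2 or picked for their copies. Up to 4 genes of smallest p of each other list could be named. Of 326 list symbols, 322 were matched to genes of the files. Some genes the rule names are not reported here.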

Additional observations from a re-analysis of the deposited data

How the results depend on the processing

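With all 6 libraries, edgeR called 0 members higher and 0 lower under every scaling, filter and copy-summing alternative run, as did limma on voom and FPKM values, while DESeq2 gave 2 higher and 1 lower. With 1 library left out the members called ranged from 0 to 11 higher and from 0 to 19 lower, and leaving out WT 2 gave all of these calls. Mouse numbers did not pair the groups: same-numbered mice deviated together with correlations of 0.0363, 0.0423 and 0.0893, and no mouse correlated best with its own number. With the replicate block 0 members were higher and 0 lower, the median stayed at -0.04, and Rpl39l stood at -0.01.

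The median log2 ratio of the members was -0.15 when scaled to the summed members and ranged from -0.12 to 0.01 with 1 library left out. The member share, SAKI minus WT, was -0.0718 points of FPKM, against 0.11 points of counts, which ranged from 0.0582 to 0.162 with 1 library left out. Scaled to the summed members, among the members named by the rule Rpl22 stood at -0.02, Rpl39l at -0.10 and Rpl8 at -0.06. Rpl39l was at -0.00 with limma-voom and with log2(FPKM + 0.1), and Rps27 at 0.38 with copies summed, where Rpl12 (0.28), Rpl23a (0.17) and Rpl27 (0.06) also changed sign. Among the members named by the rule, leaving out 1 library changed the signs of Rpl39l (-0.28 to 0.19), Rpl3l (-1.07 to 1.08), Rpl7l1 (-0.20 to 0.02), Rpl8 (-0.01 to 0.10) and Rps13 (-0.24 to 0.13). Of the other members, Rpl18 (-0.05), Rpl23 (-0.13), Rpl28 (0.10) and Rps7 (-0.07) changed sign without WT 2. The other left-out libraries were not tabulated for them. The cause was not tested. Low counts limit members such as Rpl9, Rpl36, Rps13, Rps27 and Rpl39l.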
